A study of Homo sapiens
Mus musculus and Homo sapiens with 21 samples.

Results

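Mural cells are the pericytes and smooth muscle cells that wrap the endothelial tube of blood vessels. Endothelial cells recruit them through platelet-derived growth factor B and its receptor on the mural cell. In the brain, pericytes sit in the capillary wall and help keep the blood-brain barrier, whereas smooth muscle cells ring the arterioles and set their width by contracting. The results below follow 9 mouse genes used as markers of these cells, chosen by name and found by symbol among 33043 gene entries of the mouse expression table. The 6 pericyte genes are Pdgfrb, Rgs5, Kcnj8, Abcc9, Vtn and Anpep, and the 3 smooth muscle genes are Acta2, Tagln and Myh11.

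The host tissue came from athymic nu/nu mice, which lack a functional thymus and therefore accept human cells. The human cells were H2030-BrM3, a brain-seeking derivative of the H2030 lung adenocarcinoma line, injected at 5 to 6 weeks of age either into the heart or, mixed with Matrigel, under the skin. RNA-seq of total RNA gave 4 libraries of forebrain without tumours (FB), 4 of hindbrain without tumours (HB), 3 each of forebrain and hindbrain with tumours (FBMet and HBMet) and 4 of subcutaneous tumours (SQ). Tumour tissue was dissected with the stroma around it, the labels list the same cell line for the tumour-free regions, and they do not say whether those regions came from injected mice. They also do not say which libraries came from separate animals, so p-values measure the spread between these libraries, which may in part be technical.

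Reads on mouse genes numbered 17747167 to 23034782 in tumour-free brain, 52358082 to 86139353 in tumour-bearing brain and 2446513 to 3982107 in subcutaneous tumours. Human reads were 4.83 to 7.52% of tumour-bearing brain libraries and 87.8 to 95.2% of subcutaneous ones. Levels below are RPKM, reads per kilobase of transcript scaled to depth, rescaled so that the mouse values of each library sum to 1000000. Changes are from limma on log2 of the level plus 1, and a gene was called when its adjusted p was under 0.05. All 9 genes passed the filter on low values, which asked for 3 libraries of a fit at a level of 1 or more. In these bulk samples, fewer mural cells and less RNA per mural cell cannot be told apart.

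The levels in brain spanned more than 1 order of magnitude between the 9 genes. Vtn, the gene of the secreted adhesive glycoprotein vitronectin, and Rgs5, a regulator of G-protein signalling that is abundant in pericytes, stood far above the others, at group means of 57.7 to 79.7 and 53.4 to 79.3. Anpep, which encodes the surface peptidase aminopeptidase N (CD13), followed at 7.23 to 10.9, and Pdgfrb, the receptor for platelet-derived growth factor B, at 5.18 to 7.39. Acta2, smooth muscle alpha-actin, and Tagln, its actin-binding partner transgelin, lay at 3.22 to 5.31 and 3.40 to 4.65. Abcc9 and Kcnj8, which encode the regulatory subunit and the pore of an ATP-sensitive potassium channel of mural cells, lay at 1.33 to 2.31 and 1.48 to 1.87. Myh11, the smooth muscle myosin heavy chain, was the lowest or next to lowest of the 9 in each brain group, at 0.892 to 2.07. Levels between genes depend on the transcript length the authors divided by, which the values imply to be 758 bases for Anpep and 6632 bases for Myh11. The length of Anpep is short for this gene, so its level beside the others may be too high. The order of Vtn and Rgs5 also rests on the lengths, 1038.5 and 2409.5 bases. By reads, Rgs5 exceeded Vtn in every brain library, with 7397 against 4108 over the FB libraries.

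**Figure D1:**
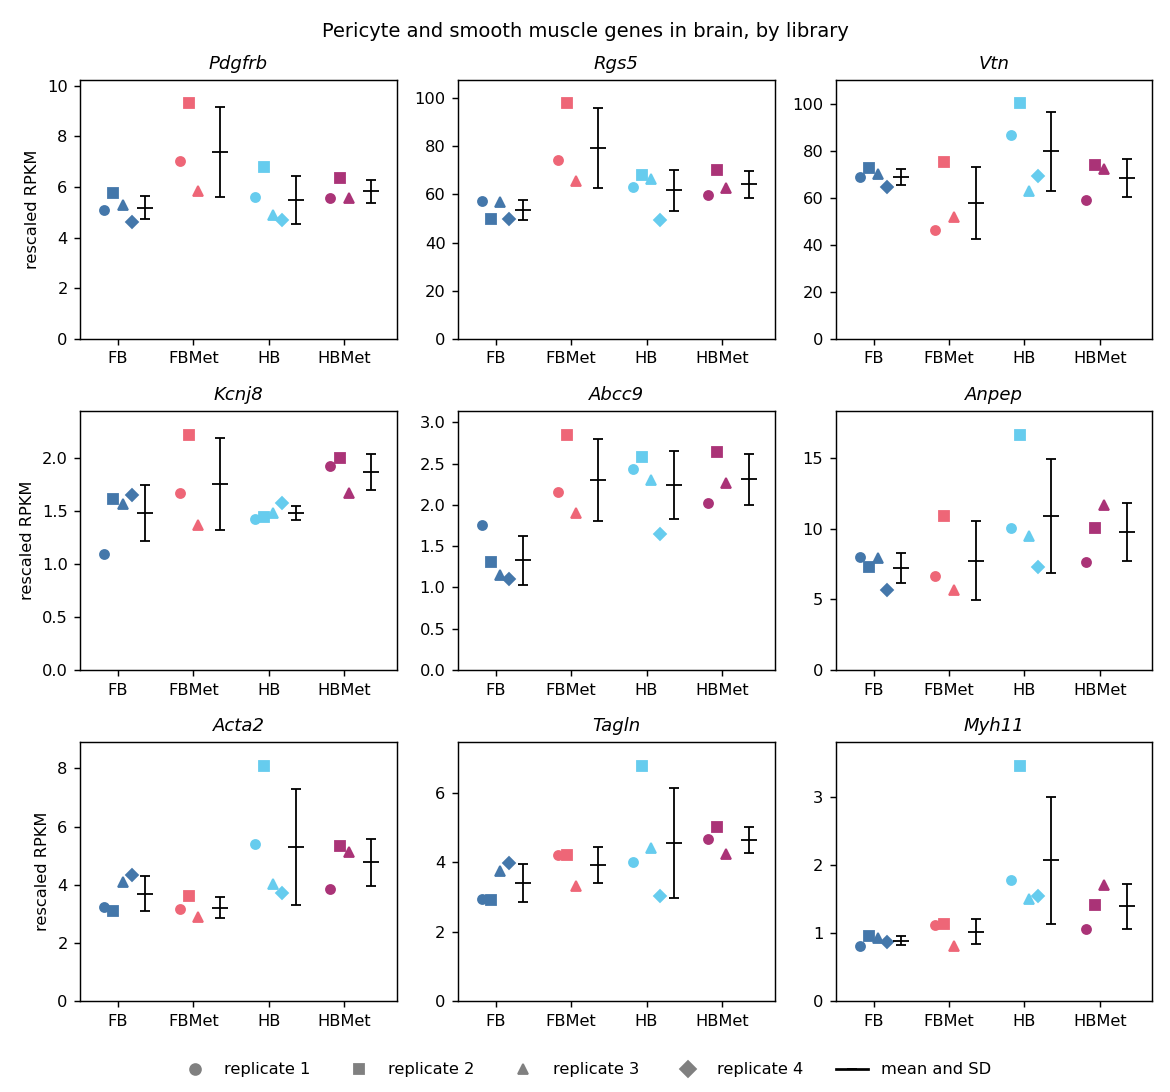
Level of each of the 9 genes in each brain library (vertical axis, rescaled RPKM, starting at 0) for forebrain and hindbrain without tumours (FB, HB) and with tumours (FBMet, HBMet). Marker shapes give the replicate number and black bars the mean and SD. Replicate 2 of FBMet is the highest of its group for all 9 genes, and replicate 2 of HB for 8 of 9.

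In forebrain, 3 of the 6 pericyte genes were higher with tumours and none of the 3 smooth muscle genes passed the test. Rgs5 rose 1.46-fold, Abcc9 1.42-fold and Pdgfrb 1.34-fold. Vtn, which had the highest level of the 9 genes in tumour-free forebrain by rescaled RPKM, had a lower mean with tumours and did not pass. Of all 15777 genes tested, 30.4% were called in this comparison, 14.4% higher and 16% lower, so 3 of 9 is near the share of genes called overall.

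Rgs5 (ENSMUSG00000026678.10) stood at 57.1, 49.9, 56.7 and 49.8 in the 4 tumour-free forebrain libraries and at 74.4, 97.9 and 65.7 in the 3 tumour-bearing ones. Every tumour-bearing library lay above every tumour-free one, and replicate 2 was the highest. The change was 0.55 ± 0.13 on the log2 scale (SE; limma adjusted p = 0.00696), from 1580 or more reads in each library. Pdgfrb (ENSMUSG00000024620.11) was 5.10, 5.75, 5.28 and 4.62 without tumours and 7.02, 9.31 and 5.84 with tumours. These groups did not overlap either, although the lowest tumour-bearing library exceeded the highest tumour-free one by little (5.84 against 5.75). Its log2 change was 0.42 ± 0.14 (SE; limma adjusted p = 0.0306).

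Abcc9 (ENSMUSG00000030249.15) was 1.76, 1.31, 1.15 and 1.1 without tumours and 2.15, 2.85 and 1.90 with tumours, again without overlap. The log2 change was 0.50 ± 0.14 (SE; limma adjusted p = 0.0154). Its channel partner Kcnj8 (ENSMUSG00000030247.9) was 1.09, 1.61, 1.57 and 1.65 without tumours and 1.67, 2.22 and 1.37 with tumours. The Kcnj8 groups overlapped, since replicate 3 with tumours lay below 3 of the 4 tumour-free libraries, and the log2 change of 0.14 did not pass (limma adjusted p = 0.388). Groups without overlap were found for 37.9% of all genes tested in this comparison.

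Vtn (ENSMUSG00000017344.4) was 68.7, 72.5, 69.9 and 64.6 without tumours and 46.2, 75.2 and 51.7 with tumours. Replicates 1 and 3 with tumours were below all tumour-free libraries and replicate 2 was above them, so the groups overlapped and the log2 change of -0.28 did not pass (limma adjusted p = 0.210). Anpep (ENSMUSG00000039062.15) was 5.68 to 7.99 without tumours and 6.66, 10.9 and 5.65 with tumours. Its groups overlapped and its log2 change was 0.05 (limma adjusted p = 0.899).

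None of the 3 smooth muscle genes passed the test in forebrain. Acta2 (ENSMUSG00000035783.8) was 3.24, 3.12, 4.10 and 4.32 without tumours and 3.16, 3.62 and 2.88 with tumours. Tagln (ENSMUSG00000032085.4) was 2.95, 2.93, 3.74 and 3.99 without tumours and 4.21, 4.22 and 3.32 with tumours. Myh11 (ENSMUSG00000018830.8) was 0.814 to 0.964 without tumours and 1.11, 1.14 and 0.814 with tumours. All 3 sets of values overlapped between the groups. The 95% interval of the log2 change was -0.55 to 0.26 for Acta2, -0.21 to 0.54 for Tagln and -0.28 to 0.47 for Myh11. The added 1 dampens changes of genes at these low levels, and whether these changes differ from that of Rgs5 was not tested.

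Replicate 2 of tumour-bearing forebrain was the highest of its group for all 9 genes and also had the largest summed level of 15 endothelial genes, 565 against 455 and 386 in the other two. Without this library Rgs5 kept its call (limma adjusted p = 0.0492), Pdgfrb and Abcc9 did not (0.194 and 0.0982), and Vtn was called lower (log2 change -0.49, limma adjusted p = 0.0473). The number of genes called over the whole table then fell from 4793 to 2353. Pdgfrb also lost its call without the filter on low values (limma adjusted p = 0.0624) and without each of FB replicate 3 (0.0531), FB replicate 4 (0.0803) and FBMet replicate 1 (0.0650), and without replicate 1 of both tumour-free regions (0.0536).

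**Figure D2:**
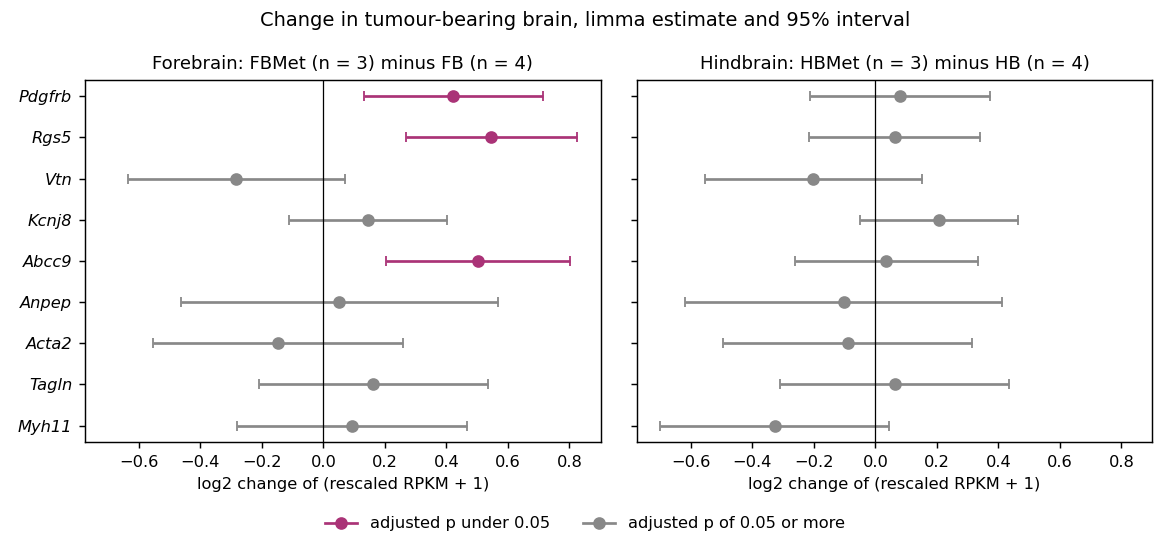
Change of each gene between tumour-bearing and tumour-free brain (horizontal axis, log2 of rescaled RPKM plus 1; points are limma estimates and bars their 95% intervals), for forebrain on the left and hindbrain on the right. Rgs5, Abcc9 and Pdgfrb lie above 0 in forebrain (0.55, 0.50 and 0.42), and every hindbrain interval includes 0.

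Other genes of the same cells moved in both directions in forebrain. Of 18 further pericyte genes, 3 rose and 2 fell, with Ifitm1, an interferon-inducible membrane protein gene, at 5.25 against 2.97 (log2 change 0.65) and Heyl, a Notch target that is expressed in mural cells, at 12.5 against 19.9 (log2 change -0.63). Of 13 further smooth muscle contractile genes tested, 1 rose and 3 fell: Sncg (log2 change -0.90), Synpo2 (-0.72) and Mrvi1 (-0.54). Sncg is gamma-synuclein and is also expressed by neurons. The median log2 change was 0.20 over the further pericyte genes, 0.00 over the further smooth muscle genes and 0.14 over the 9 genes, against -0.03 over all genes tested.

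Of 22 ligands and receptors of mural cells tested, 8 rose and none fell in forebrain. Those with a mean of at least 5 and the largest changes were the cytokine gene Tgfb1 (28.6 against 11.8, log2 change 1.20) and the receptors of its family Tgfbr2 (11.3 against 5.18, log2 change 0.99), Acvrl1 (0.68) and Tgfbr1 (0.55). Pdgfb, the ligand of Pdgfrb, was 9.23 with tumours and 8.21 without and did not pass (limma adjusted p = 0.339). Endothelial genes moved in the same comparison, with 6 of 15 called higher, among them the growth factor receptor gene Kdr (log2 change 0.72), the adhesion genes Cdh5 (0.65) and Pecam1 (0.62), and Esam (0.59). Of 14 myeloid genes 11 rose, and of 12 fibroblast and meningeal genes tested 1 fell, the proteoglycan gene Dcn (log2 change -1.18). Of 8 astrocyte genes 5 rose, and the summed level of the 8 was 9214 to 11375 without and 15529 to 19986 with tumours, without overlap. Most of that sum is 1 gene, Slc1a2, with means of 9013 and 15308. The part of these other cells in the changes of Rgs5, Abcc9 and Pdgfrb, and in those of the ligand and receptor genes, was not tested.

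In hindbrain, none of the 9 genes passed the test between tissue with and without tumours, and none reached an unadjusted p under 0.05. With voom, a limma fit on read numbers recovered from the values, the count was also 0. Of all genes tested, 3.25% were called in hindbrain, 2.92% higher and 0.33% lower. Rgs5 was 63.0, 68.0, 66.6 and 49.2 without tumours and 59.7, 70.2 and 62.4 with tumours. Pdgfrb was 5.61, 6.79, 4.91 and 4.69 without tumours and 5.56, 6.36 and 5.57 with tumours. For both genes the groups overlapped, and the lowest values were tumour-free libraries.

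Abcc9 in hindbrain was 2.44, 2.59, 2.30 and 1.64 without tumours and 2.03, 2.64 and 2.27 with tumours, and these groups overlapped. Kcnj8 was 1.43, 1.44, 1.48 and 1.57 without tumours and 1.92, 2.00 and 1.67 with tumours, which made it the 1 gene of the 9 whose hindbrain groups did not overlap. Its log2 change of 0.21 did not pass (limma adjusted p = 0.448), and 12.8% of all genes tested had groups without overlap. Vtn was 86.7, 100.2, 63.0 and 69.1 without tumours and 59.2, 73.7 and 72.2 with tumours.

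Replicate 2 of tumour-free hindbrain, the highest of its group for 8 of the 9 genes, set the upper end of several ranges. Anpep was 10.1, 16.7, 9.50 and 7.33 without tumours against 7.62, 10.1 and 11.7 with tumours. Acta2 was 5.39, 8.09, 4.04 and 3.72 against 3.85, 5.33 and 5.12, Tagln was 4.02, 6.79, 4.43 and 3.03 against 4.69, 5.02 and 4.26, and Myh11 was 1.79, 3.46, 1.51 and 1.54 against 1.06, 1.41 and 1.71. The same library had the largest summed level of endothelial genes (552, against 403 to 447 in the other three) and of fibroblast and meningeal genes (660, against 443 to 499.6). The part of these cells in its values was not tested.

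The intervals allow small changes in hindbrain. The 95% interval of the log2 change was -0.22 to 0.34 for Rgs5, -0.21 to 0.37 for Pdgfrb and -0.26 to 0.34 for Abcc9. The difference between the regions in the change with tumours was itself tested, and it passed for none of the 9 genes, where 0.456% of all genes passed, 0.254% with a higher and 0.203% with a lower change in forebrain. It was 0.48 for Rgs5 (unadjusted p = 0.0198, limma adjusted p = 0.177) and 0.47 for Abcc9 (unadjusted p = 0.0330, limma adjusted p = 0.218) on the log2 scale. Voom gave 0 calls among the 9 for this difference as well. The rise of Rgs5, Abcc9 and Pdgfrb in forebrain is thus not shown to differ from hindbrain.

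Among the related lists in hindbrain, 1 of 18 further pericyte genes rose, the ADP-ribosyltransferase family gene Art3 (5.05 against 3.27, log2 change 0.51). Ifitm1, called in forebrain, also had a higher mean with tumours in hindbrain (10.2 against 5.83) but was not called there. None of 13 smooth muscle contractile genes and none of 15 endothelial genes was called. Of 22 ligands and receptors 5 rose, with Tgfb1 at 23.7 against 10.9 (log2 change 1.05), Tgfbr2 at 10.7 against 6.49 (0.65) and the endothelial ligand gene Angpt1, made by mural cells, at 8.21 against 5.07 (0.58). Myeloid genes rose as well in hindbrain, 11 of 14, and their part in the changes of the ligand and receptor genes was not tested. For Tgfb1 the difference between the regions was 0.15 on the log2 scale (limma adjusted p = 0.688). The sphingosine-1-phosphate receptor gene S1pr3 changed less in forebrain than in hindbrain, a difference of -0.63 on the log2 scale (limma adjusted p = 0.0365).

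Between tumour-free regions, 2 of the 9 genes differed. Myh11 was 1.58-fold lower in forebrain and Abcc9 1.39-fold lower, and the other 7 genes were not called. Of all genes tested 52.8% were called, 20.2% higher and 32.5% lower in forebrain. In forebrain Myh11 lay between 0.814 and 0.964 in all 4 libraries, below the lowest hindbrain library at 1.51, and 44.8% of all genes had groups without overlap. Its log2 difference was -0.66 ± 0.16 (SE; limma adjusted p = 0.00323). At this low level the added 1 dampens the difference, which was -1.12 with voom. Replicate 2 of hindbrain, at 3.46, stood apart from the other three.

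Abcc9 differed by -0.48 ± 0.13 on the log2 scale (SE; limma adjusted p = 0.00636), with 1 overlap: forebrain replicate 1 at 1.76 exceeded hindbrain replicate 4 at 1.64. Acta2 and Anpep had unadjusted p-values of 0.0446 and 0.0467 and did not pass after adjustment (limma adjusted p = 0.0780 and 0.0813, with log2 differences of -0.39 and -0.49). Tagln (-0.31), Rgs5 (-0.20), Vtn (-0.19) and Pdgfrb (-0.06) were not called, and Kcnj8 was 1.48 in both regions. Kcnj8 took the opposite sign in 6 of 19 alternatives and Pdgfrb in 3 of 20. Without hindbrain replicate 4, the library with the lowest Rgs5, Acta2, Tagln, Anpep and Abcc9 of its group, 6 of the 9 were called lower in forebrain, with Rgs5, Acta2, Tagln and Anpep added. Acta2 was also called without hindbrain replicate 3 (limma adjusted p = 0.0444).

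Further markers also differed between the tumour-free regions. Of 18 further pericyte genes 8 were lower in forebrain and none higher, with the transcription factor gene Ebf1 at 4.08 against 26.0 (log2 difference -2.40) and the adhesion gene Mcam at 20.8 against 65.0 (-1.60). Both are also expressed outside mural cells, Ebf1 in some neurons. Of 13 further smooth muscle genes 5 were lower and 3 higher, with Sncg (-2.81) and the calcium-binding gene Casq2 (-2.02) furthest below and the actin-binding gene Synpo2 (1.06) above. The PDGF ligands went in opposite directions: Pdgfd was 2.10 in forebrain and 8.0 in hindbrain (log2 difference -1.52), whereas Pdgfb was 8.21 and 3.80 (0.93). Fibroblast and meningeal genes were lower in forebrain in 9 of 12 tested and higher in 2, among them Col1a2 (-1.19), and their part in the Myh11 difference was not tested. Of all calls, 38.4% were higher in forebrain, against 51.1% when libraries were scaled by median of ratios.

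With tumours, none of the 9 genes was called between forebrain and hindbrain, while 48.4% of all genes were, 17.8% higher and 30.7% lower in forebrain. The count was 1 at an unadjusted p under 0.05 and 1 with voom, Acta2 in both. Acta2 was 2.88 to 3.62 in forebrain and 3.85 to 5.33 in hindbrain without overlap, and the log2 difference of -0.45 ± 0.20 (SE) did not pass (limma adjusted p = 0.0840). Tagln was 3.32 to 4.22 and 4.26 to 5.02, also without overlap (-0.20, limma adjusted p = 0.391), and 61.3% of all genes tested had groups without overlap. Pdgfrb and Rgs5 leaned the other way, at log2 differences of 0.28 and 0.29 (limma adjusted p = 0.131 and 0.105). The difference for Abcc9 was -0.01, with a 95% interval of -0.33 to 0.31.

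Which genes pass here depends on the fit. With the replicate number as a block, Pdgfrb was called higher in tumour-bearing forebrain (limma adjusted p = 0.0415). With median-of-ratios scaling Pdgfrb and Rgs5 were called higher (0.0424 and 0.0301). That scaling moved the median log2 difference of all genes from -0.11 to 0.00 and the share of calls that were higher from 36.7% to 51.2%. Acta2 was called lower in a fit of only these 2 groups (limma adjusted p = 0.0194) and with voom (0.0276). Without FBMet replicate 3, Pdgfrb and Rgs5 were called higher (0.0349 and 0.0328), and without FBMet replicate 2 Vtn was called lower (0.0299).

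Between subcutaneous tumours and tumour-bearing brain all 9 genes differed, 8 higher and 1 lower under the skin, where 80.7% of all 16814 genes tested differed, 33.5% higher and 47.1% lower. By the ratio of group means Acta2 was 51.9 times higher, the peptidase gene Anpep 32.6 times and Tagln 32.3 times. Pdgfrb was 12.4 times higher, the channel genes Kcnj8 and Abcc9 5.14 and 5.13 times, Myh11 2.38 times and Rgs5 1.65 times. Vtn was 11.1-fold lower. The fitted log2 differences below are smaller for low genes because of the added 1. The median log2 difference was 1.94 over the 9 genes and -0.26 over all genes, the latter moving to -0.02 on RPKM without rescaling and to 0.02 with voom.

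Acta2 was 242, 196, 183 and 208 in the 4 subcutaneous libraries and 2.88 to 5.33 in the 6 libraries of tumour-bearing brain. Tagln was 151, 147, 109 and 147 against 3.32 to 5.02, and Anpep was 298, 243, 235 and 367 against 5.65 to 11.7. The lowest subcutaneous library exceeded the highest brain library by more than an order of magnitude for each of these 3 genes. The log2 differences were 5.40 ± 0.11 for Acta2 (SE; limma adjusted p = 7.18e-11), 4.72 ± 0.12 for Tagln (1.60e-10) and 4.89 ± 0.20 for Anpep (3.92e-09). Acta2 is also the actin of myofibroblasts, and Anpep is carried by fibroblasts and myeloid cells as well as pericytes.

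Pdgfrb was 72.9, 81.8, 100.2 and 73.1 in subcutaneous tumours and 5.56 to 9.31 in tumour-bearing brain, a log2 difference of 3.45 ± 0.14 (SE; limma adjusted p = 3.49e-09). Kcnj8 was 8.13, 7.89, 9.03 and 12.2 against 1.37 to 2.22, and Abcc9 was 8.65, 11.4, 13.2 and 14.1 against 1.90 to 2.85. Both channel genes thus stood clear of brain, with log2 differences of 1.86 and 1.94 (limma adjusted p = 6.49e-07 and 6.27e-07).

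Rgs5 was 114, 89.3, 130 and 142 in subcutaneous tumours and 59.7 to 97.9 in tumour-bearing brain, and replicate 2 lay within the brain range, which made it the 1 gene of the 9 with overlap (65.6% of all genes had none). Its log2 difference was 0.72 ± 0.15 (SE; limma adjusted p = 0.00120). Myh11, the contractile gene with the most restricted expression of the 3, was 1.91, 3.14, 2.38 and 4.07 against 0.814 to 1.71, from 37 to 93 reads per subcutaneous library. Its log2 difference was 0.79 ± 0.17 (SE; limma adjusted p = 0.00146), far below those of Acta2 and Tagln. Acta2 stood at 51.1 to 127 times the level of Myh11 in subcutaneous tumours and at 2.34 to 4.99 times in the brain groups.

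Vtn was 7.49, 2.32, 3.69 and 9.23 in subcutaneous tumours, from 27, 8, 9 and 33 reads, and 46.2 to 75.2 in tumour-bearing brain. Every subcutaneous library was thus well below every brain library, with a log2 difference of -3.38 ± 0.30 (SE; limma adjusted p = 2.70e-06). The cancer cells themselves, grown as a monolayer without host tissue, gave over 3 libraries 1 read in all on each of mouse Acta2 and Vtn and 0 on the other 7 genes. At that rate 1.26 reads of each gene would be expected over the 4 subcutaneous libraries, 0.0268% of the Acta2 reads and 1.64% of the Vtn reads.

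**Figure D3:**
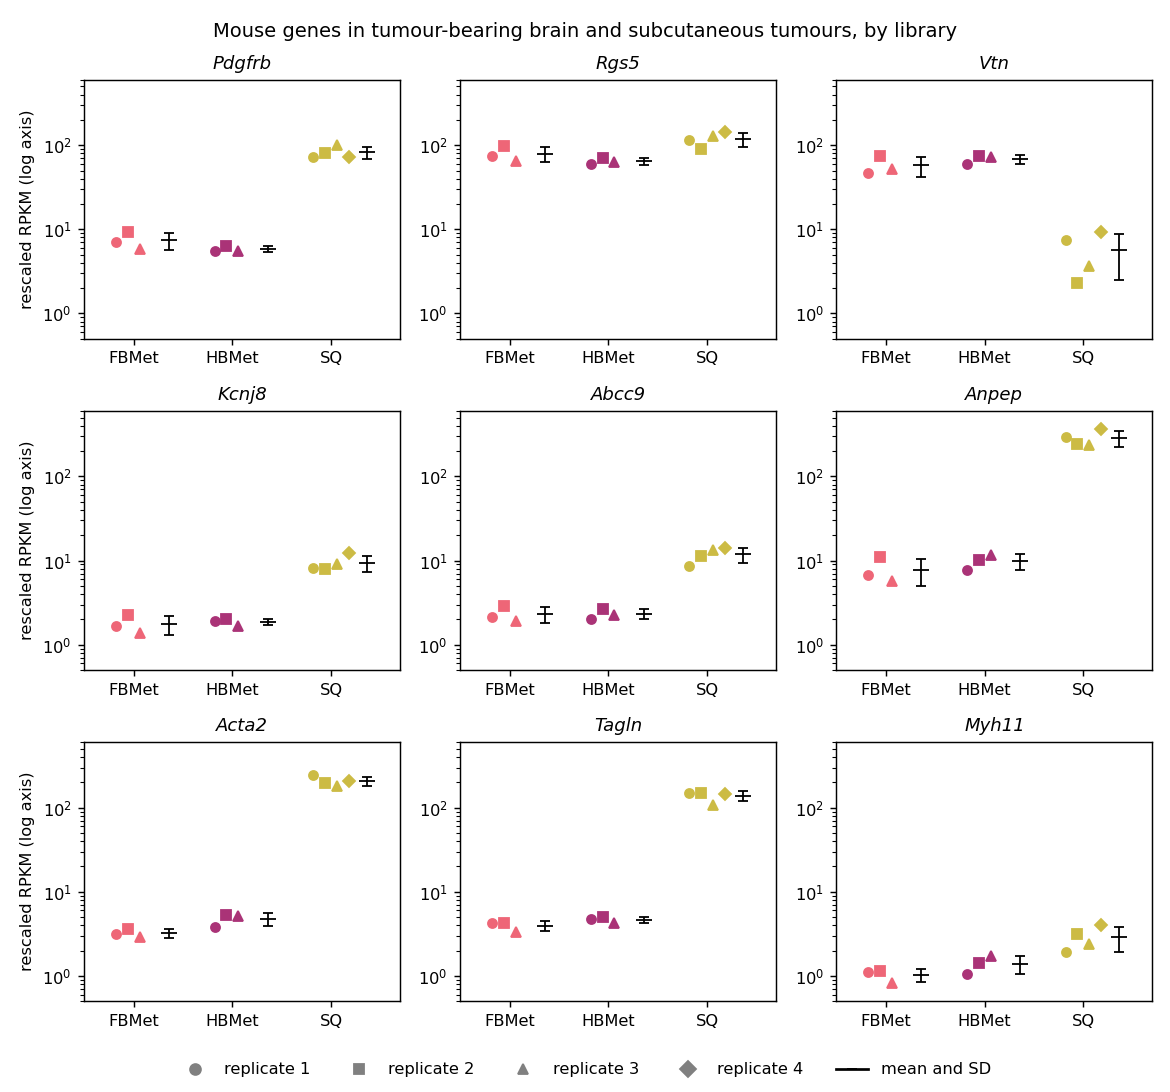
Level of each gene in each library of tumour-bearing forebrain (FBMet), tumour-bearing hindbrain (HBMet) and subcutaneous tumours (SQ), on a log axis of rescaled RPKM. Marker shapes give the replicate number and black bars the mean and SD. Acta2, Tagln and Anpep lie above 100 in subcutaneous tumours and below 12 in brain, Rgs5 overlaps, and Vtn lies below 10 under the skin.

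Each of the 9 calls held under all 20 or 21 alternatives run for it. With voom, which works on read numbers, the log2 differences were 1.53 for Myh11, 2.62 for Kcnj8, 2.59 for Abcc9 and 6.00 for Acta2. Acta2 belongs to a family of near-identical actin genes, and reads could be split between them. In subcutaneous tumours the skeletal muscle actin Acta1 was at 395 ± 136 and the enteric smooth muscle actin Actg2 at 11.5 ± 5.34 (SD, n = 4).

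Further mural markers were mostly higher in subcutaneous tumours. Of 18 further pericyte genes 13 were higher and 3 lower. Cd248, the gene of endosialin, which fibroblasts and activated pericytes share, was 92.2 against 1.90 (log2 difference 4.99), Ndufa4l2 was 51.1 against 3.47 (3.54), and Heyl was 122 against 16.6 (2.84). The 3 lower genes, named after their values were seen, were Atp13a5 (0.297 against 3.45) and Foxf2 (0.108 against 2.24), both known as pericyte genes of brain, and the folate carrier gene Slc19a1. Of 14 further smooth muscle genes tested 9 were higher and 3 lower, with Des (124 against 1.83), Tpm2 (142 against 11.0) and Cald1 (377 against 46.5) among the higher. The muscle filament gene Des is also expressed in skeletal muscle.

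Ligands and receptors were higher in 18 and lower in 3 of 23, with Tgfb1 at 376 against 26.1, Tgfbr2 at 139 against 11.0, the endothelin receptor gene Ednra at 23.8 against 2.76 and the Notch ligand gene Jag1 at 27.3 against 3.96. Among 15 endothelial genes 8 were higher, such as Cdh5 (86.1 against 11.2), and 5 lower. The lower ones included the barrier transporters Slco1a4 (0.0598 against 17.0) and Mfsd2a (3.83 against 29.5). Other cells differed beside these genes. The summed level of 13 fibroblast genes was 36740 to 75141 in subcutaneous libraries and 241 to 584 in tumour-bearing brain, that of 10 skeletal muscle genes 1176 to 2266 against 6.06 to 7.91, and that of 14 myeloid genes 5242 to 6981 against 229 to 419. The sum of 8 astrocyte genes was 77.3 to 303 against 9384 to 19986. The sum of 6 skin genes was 2529 to 4007 in 3 subcutaneous libraries and 2.21 in replicate 3, against 7.37 to 12.8 in tumour-bearing brain, and that of 5 fat cell genes was 88.3 to 282 against 0.132 to 0.305. Replicate 3, which thus stood apart in skin genes, also had the lowest sum of fat cell genes and the lowest Tagln of its group, and all 9 calls held without it. The part of fibroblasts, muscle, myeloid, skin and fat cells in the levels of Acta2, Tagln, Anpep and Pdgfrb was not tested.

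Over the 14 brain libraries the 9 genes formed loose groups by their correlation, which is given as a description since the libraries share 4 groups. Pdgfrb and Rgs5 had r = 0.87, and Rgs5 and Abcc9 r = 0.80. The contractile genes Acta2 and Myh11 had r = 0.86, and Acta2 and Tagln r = 0.80. Vtn had r near 0 with Rgs5 and 0.76 with Acta2. When each library was taken as its deviation from its group mean, the value for Vtn and Rgs5 was 0.62, so these genes varied together between libraries of a group and apart between groups. Kcnj8 had r of at most 0.54 with any other gene and r = 0.29 with its partner Abcc9, at 36 to 298 reads per library.

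**Figure D4:**
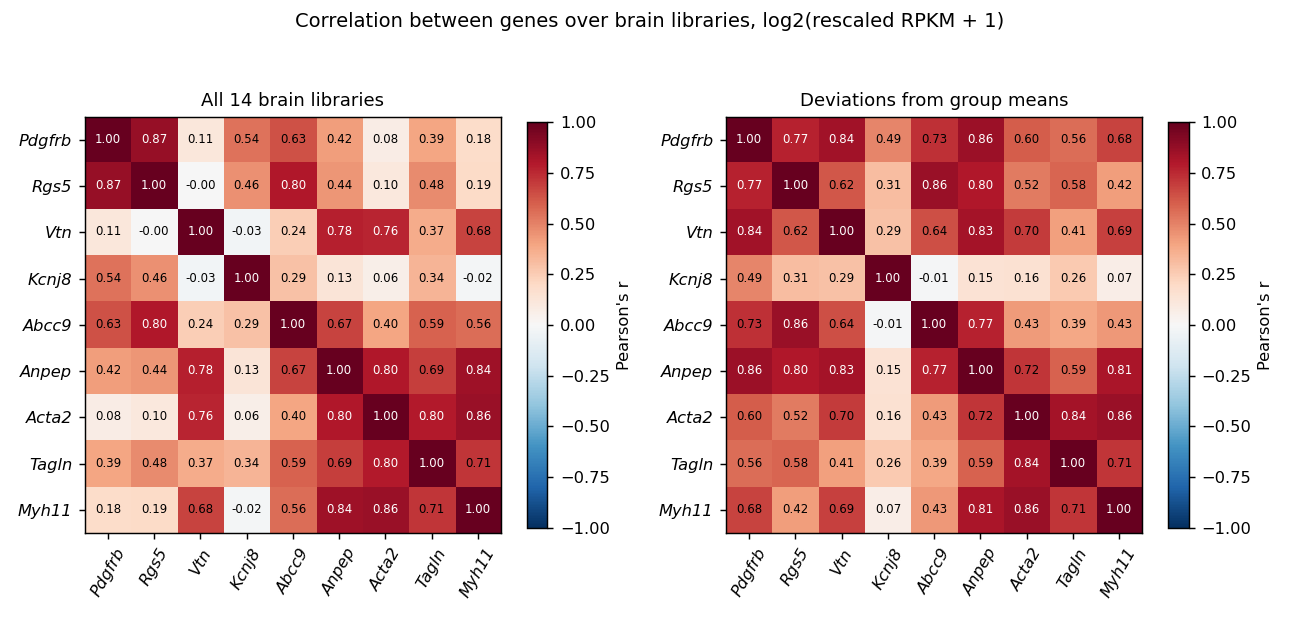
Pearson correlation between the 9 genes over 14 brain libraries (colour scale from -1 to 1), for levels on the left and for deviations from group means on the right. Pdgfrb with Rgs5 (0.87) and Acta2 with Myh11 (0.86) are high on the left, and Vtn with Rgs5 goes from near 0 on the left to 0.62 on the right.

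Among 14891 other genes with a mean of at least 1, those most like the average of the 6 pericyte genes over these 14 libraries were the endothelial receptor genes Flt1 (r = 0.94) and Ptprb (0.94), then Gltscr1 (0.94), Adgrf5 (0.94) and Adgra2 (0.93). Flt1 encodes a receptor of vascular endothelial growth factor, and Ptprb a phosphatase of endothelial cells. Those most like the average of the 3 smooth muscle genes were the matrix metalloproteinase gene Mmp28 (0.90), the matrix Gla protein gene Mgp (0.89), the fibulin genes Fbln1 (0.89) and Fbln5 (0.89), and Slc12a7 (0.88). These libraries share tissue, group and depth, and the ranking was made on the same values.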

How the data were processed

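The authors deposited RPKM per gene in a mouse and a human table. Per the submitters' processing notes the builds were mm10 (GRCm38) and hg38 (GRCh38). Which aligner and counter were run is not given in the sources used here, and mouse positions and sequences are not used here. RPKM of each library was rescaled to a sum of 1000000 over mouse genes, so a very abundant gene lowers all others. Read numbers were recovered from the steps of the deposited RPKM: 100% of 32644 mouse genes gave whole reads within 0.02, and in simulated data the reads of 100% of 21346 genes were recovered exactly.

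Log2 of the rescaled value plus 1 was tested with limma (version 3.58.1, R 4.3.3, trend and robust spread), two-sided, without a block. The fits were 1 of 14 brain libraries and 1 of 10 libraries for subcutaneous against tumour-bearing brain, over genes at 1 or more in at least 3 libraries, with Benjamini-Hochberg adjustment over all genes tested. Comparisons share libraries. Alternatives were other scalings, filters and pseudocounts, voom on recovered reads, array weights, replicate blocks, fits of fewer or more groups, and leaving out each library. The 9 genes and all lists were chosen with earlier results of these data known. From each other list, up to 4 genes were named with the largest called change, a mean of at least 5 and no overlap between groups, and the 5 genes most correlated with each of the 2 roles. A few other genes, such as Pdgfb, Acta1 and Actg2, were chosen for their relation to a member after their values were seen.

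In simulated data at these depths, 2-fold changes were recovered in 94.7, 95.8, 84.9, 94.5, 94.7 and 90.1% of cases in the order of the report (forebrain, hindbrain, difference between regions, tumour-free regions, tumour-bearing regions, subcutaneous), and 1.4-fold changes in 74.2, 71.9, 25.5, 87.1, 58.3 and 54.5%. False calls were 3.64, 2.44, 2.83, 8.24, 2.01 and 38.7% of calls. The 38.7% is 0.546% of the unchanged genes. All genes of a simulated comparison had the same dispersion, 0.00552 or, for subcutaneous tumours, 0.00858. At each fold 88 to 96 genes were changed, out of 14944 to 15198. In the data, 72 to 13562 genes were called per comparison. The SD within a group ran from 4.45% of the mean (Kcnj8, tumour-free hindbrain) to 56.6% (Vtn, subcutaneous). The simulation thus does not give the power or error rate of these tests for the pericyte and smooth muscle genes.

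Same-numbered tumour-bearing forebrain and hindbrain libraries deviated together (correlations of 0.238 to 0.437, against -0.320 to -0.0397 for other numbers). They were treated as pairs in alternative fits only, and the main fits count them as separate. Deviations were taken from means of 3 libraries, so positive values for the same numbers push those for other numbers below 0. The negative range is thus no separate evidence of pairs. This pairing comes from the data, not the labels, and enters through alternative fits with the replicate number as a block. Tumour-free forebrain and hindbrain did not meet this pattern (-0.0578 to 0.365). Nor did same-numbered tumour-bearing and tumour-free libraries, at -0.172 to 0.058 in forebrain and -0.203 to 0.040 in hindbrain. The fixed block follows the number alone and so also ties these unpaired libraries. The random block joins the number to tumour status and does not tie tumour-bearing to tumour-free libraries. Calls of Pdgfrb and Anpep under the fixed block thus do not rest on the tumour-bearing pairs alone. Figures and tables were made with Python 3.11.15, NumPy 2.4.6, pandas 2.3.3 and matplotlib 3.10.9.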

Additional observations from a re-analysis of the deposited data

Results flagged for a closer look

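Within groups of 4 libraries, 3 values of the 9 genes stood apart from the rest by Dixon's criterion, out of 27 groups examined, where chance gives about 1 in 20. Tagln was lowest in subcutaneous replicate 3, at 108.6 against 147 to 151 in the other three. Myh11 was highest in tumour-free hindbrain replicate 2, at 3.46 against 1.51 to 1.79. Kcnj8 was lowest in tumour-free forebrain replicate 1, at 1.09 from 36 reads, against 1.57 to 1.65.

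The change with tumours differed between forebrain and hindbrain for 4 genes of the related lists and for none of the 9 genes. The difference, forebrain minus hindbrain on the log2 scale with limma's adjusted p, was -1.51 for Calb2 (0.0479), -1.40 for Dcn (0.0178), -0.63 for S1pr3 (0.0365) and -0.51 for Stmn2 (0.0485). Calb2 belongs to the hindbrain and cerebellum genes and made 66.3 of their mean sum of 67.8 in tumour-free forebrain. The sum of 7 forebrain genes was 10.3 to 45.2 in tumour-free and 9.33 to 12.2 in tumour-bearing hindbrain. That of 10 choroid plexus genes was 295 to 920 in tumour-free forebrain and 1283, 34.9 and 45.3 in tumour-bearing forebrain. The part of unequal dissection in these differences was not tested.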

How the results depend on the processing

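No called change of the 9 genes took the opposite sign under any alternative run, and all 9 stayed called between subcutaneous tumours and brain wherever they were tested. For tumour-bearing against tumour-free forebrain, 2 or 3 of the 9 genes were called throughout, with 2353 to 4976 genes called over the table when 1 library was left out. For hindbrain, 0 of the 9 were called throughout, and 291 to 804 genes with 1 library left out, 294 with a filter at 5, 824 with array weights and 853 without replicate 1 of both tumour-free regions. For the difference between regions, 0 of the 9 were called throughout, and 12 to 343 genes with 1 library left out, 30 without a filter, 660 with array weights, 173 with voom, 160 with a random replicate block and 631 without replicate 1 of both tumour-free regions. Between tumour-free regions, 2 to 6 of the 9 were called with 1 library left out, 0 with a filter at 5, at which Myh11 and Abcc9 were not tested, and 3 with a replicate block, which added Anpep (adjusted p = 0.0309). Between tumour-bearing regions, 0 to 2 were called with 1 library left out, 3 with array weights, 2 with median-of-ratios scaling, and 1 each with a fit of only these groups, with the replicate block and with voom. The replicate block changed no other call of the 9 genes. Kcnj8 at 36 reads carries a counting error of 16.7%, and Vtn at 8 reads one of 35.4%, so small changes of either were not detectable in the libraries with the fewest reads of that gene.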

Other observations

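Levels can also be set against the summed level of endothelial genes in the same library. These ratios were chosen after the values were seen, carry no test, and were computed for all 9 genes. The share of all genes whose ratios would not overlap was not computed. Vtn stood at 18 to 19.6% of the sum of 15 endothelial genes in tumour-free forebrain and at 10.1 to 13.4% in tumour-bearing forebrain, without overlap. In hindbrain it was 14.4 to 19.4% without tumours and 11.5 to 14.1% with tumours. These hindbrain ranges missed overlap narrowly (14.4 against 14.1). The levels of Vtn itself overlapped in both regions and were not called. Under the skin the ratio was 0.297 to 1.01%. Rgs5 was 12.4 to 16.3% without tumours and 16.3 to 17.3% with tumours in forebrain, and 12.2 to 15.2% and 11.6 to 13.1% in hindbrain, where the ranges overlapped. Pdgfrb was 1.35 to 1.45% without and 1.51 to 1.65% with tumours in forebrain, higher without overlap, and its ranges overlapped in hindbrain. Myh11 was 0.345 to 0.627% without and 0.206 to 0.334% with tumours in hindbrain, lower without overlap, and its ranges overlapped in forebrain. The endothelial sum itself had a mean of 369 without and 469 with tumours in forebrain, and 460 and 521 in hindbrain. Slc2a1 alone made 159 of this mean in tumour-free forebrain and 208 in tumour-free hindbrain, so the ratios lean heavily on 1 gene.

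The ratio of Vtn to Rgs5, both known as abundant pericyte genes in brain, was 1.20 to 1.45 in tumour-free forebrain and 0.621 to 0.786 in tumour-bearing forebrain. In hindbrain the ranges were 0.946 to 1.47 without tumours and 0.992 to 1.16 with tumours, and they overlapped. Among the pericyte and smooth muscle genes, Rgs5 had the highest log2 change in forebrain (0.55) and Vtn the lowest (-0.28). Separate ranges for this pair thus add no evidence of their own. Few other pairs were computed. In forebrain the ranges of Acta2 to Rgs5 and Acta2 to Tagln were also separate. Those of Acta2 to Myh11 and Abcc9 to Kcnj8 overlapped. The share of all gene pairs with separate ranges was not computed. Acta2 relative to the endothelial sum was 0.774 to 1.26% in tumour-free and 0.640 to 0.747% in tumour-bearing forebrain, and 0.923 to 1.47% and 0.749 to 1.00% in hindbrain, where the ranges overlapped. The level of Acta2 itself passed the test between tumour-bearing and tumour-free tissue in neither region.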
